A study of Mus musculus with 8 samples.

Results

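The genes of milk lipid synthesis were examined in mouse breast tumors by the extent of H3K27ac, the acetylation of lysine 27 on histone H3 that active promoters and enhancers carry. Of 21938 protein-coding genes, 10 were chosen by name as lipid synthesis and droplet genes: Acly, Acaca, Fasn, Olah, Scd1, Scd2, Lpin1, Plin2, Srebf1 and Thrsp. For each of them, all H3K27ac peaks in the gene body and in 50 kb either side were taken, which is called the window below. All tumors arose in Balb/c mice that carried the polyoma middle T oncogene (PyMT) under the mouse mammary tumor virus promoter and lacked Rag1, so that the hosts had no T or B cells of their own, and both groups received wild-type CD4+ T cells when 4 weeks old. The 2 control tumors were PyMT;Rag1KO and the 2 test tumors K14-TSLPtg;PyMT;Rag1KO, with thymic stromal lymphopoietin (TSLP) driven by the keratin 14 promoter, which is active in basal cells of stratified epithelia such as the skin. Tumors were taken at terminal size as pieces of whole tissue, and the sample names call the control pieces tumor and the test pieces cyst. Nothing says from which litters the mice came, so the spread given here is only that between these samples.

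During lactation the secretory epithelium of the mammary gland builds much of its milk fat from glucose. Citrate exported from mitochondria is split to acetyl-CoA, which is carboxylated and then polymerized to saturated fatty acids, and the chain is released from the synthase by a thioesterase; part of the fatty acids are desaturated before they are esterified to glycerol. The triglyceride is stored in cytosolic droplets that leave the cell wrapped in apical membrane, and the whole program is driven by the transcription factor SREBP1 and its partners.

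The sequences that the results below turn on are the promoters of Fasn and Plin2, whose start-site peaks are described, and both stretches of Olah intron that lay under a peak in the test tumors alone. The promoters are the 250 bases before the start as listed by RefSeq for GRCm38.p6, the assembly also named mm10, and all bases of both lay under a peak in each of the 4 tumors. They were read on the minus strand from chr11:120824548-120824797 for Fasn and from chr4:86670060-86670309 for Plin2, and capitals mark CCAAT or its reverse complement.
Fasn promoter: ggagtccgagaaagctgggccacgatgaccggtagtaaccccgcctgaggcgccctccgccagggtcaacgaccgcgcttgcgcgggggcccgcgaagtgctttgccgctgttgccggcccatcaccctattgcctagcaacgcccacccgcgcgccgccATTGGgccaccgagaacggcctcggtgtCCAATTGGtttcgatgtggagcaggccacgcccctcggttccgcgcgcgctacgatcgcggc
Plin2 promoter: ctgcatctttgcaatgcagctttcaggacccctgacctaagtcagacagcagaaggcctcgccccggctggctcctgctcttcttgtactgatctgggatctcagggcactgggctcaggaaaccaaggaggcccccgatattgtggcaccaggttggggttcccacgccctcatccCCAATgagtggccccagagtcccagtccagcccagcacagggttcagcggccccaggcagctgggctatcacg
The Olah stretches, also on the minus strand, are the bases shared by the peaks of both test tumors, 177 bases at chr2:3389400-3389576 and 226 bases at chr2:3390915-3391140.
Olah intron, distal: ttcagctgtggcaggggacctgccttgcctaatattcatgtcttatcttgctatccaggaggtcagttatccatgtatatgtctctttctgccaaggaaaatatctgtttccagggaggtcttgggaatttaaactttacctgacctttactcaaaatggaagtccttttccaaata
Olah intron, proximal: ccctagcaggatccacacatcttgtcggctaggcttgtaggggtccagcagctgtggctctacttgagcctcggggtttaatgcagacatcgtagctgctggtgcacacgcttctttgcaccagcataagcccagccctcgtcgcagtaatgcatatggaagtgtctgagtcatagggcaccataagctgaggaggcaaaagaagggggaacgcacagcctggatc
The genome read here is that of C57BL/6J mice, and the tumors were of another strain.

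The motif CCAAT was searched on both strands along with CACGTG, the sterol regulatory element TCACNCCAC and the STAT motif TTCNNNGAA. The RefSeq promoter table held 8 of the 10 genes, all but Scd1 and Scd2, with 10 promoters between them. CCAAT occurred in 5 of these promoters, belonging to 4 genes. It began 73 bases before the start of Plin2 (position -73), at -90, -62 and -59 in Fasn, where the last pair overlap by 2 bases, and at -79 and -52 in Thrsp. It stood at -166 in the first and at -30 in the third of the Srebf1 promoters. Of 21230 protein-coding promoters, 35.3% held CCAAT. None of the other motifs was in any of the 10 promoters (0 promoters each) or in the Olah stretches, against 6.63%, 1.01% and 6.57% of all promoters for CACGTG, TCACNCCAC and TTCNNNGAA.

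The peak lists of the 4 tumors held 59762 to 69861 peaks that covered 64.3 to 73.1 Mb, with the least in test 2 on both counts. They give positions only, so a peak is known by its place and width and not by its height, and the depth of sequencing behind it is unknown. Markers of luminal epithelium, checked against the breast tumor label, were acetylated in every tumor: within 10 kb of the starts of 12 such genes 101 to 106 kb lay under peaks, and Epcam and Krt8 had a promoter peak in each. The luminal regulator Elf5 was nearly bare, with 0.348 kb in control 1, 0.350 kb in test 1 and 0 kb in the remaining tumors.

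All 10 genes lay in acetylated chromatin in every tumor, and as a group they carried more of it than most genes. Peaks covered 239.0 kb of the 1537 kb of windows in control 1, 229.1 kb in control 2, 266.1 kb in test 1 and 200.5 kb in test 2, so that the highest and the lowest sum both came from test tumors. By covered length, Srebf1 ranked at the 99.4th percentile of the 16468 genes that passed the filter, followed by Scd2 at 98.4, Scd1 at 96.9, Thrsp at 94.3, Plin2 at 91.9, Acly at 87.5, Fasn at 80.3, Lpin1 at 78.6 and Acaca at 73.5. Olah, the thioesterase that ends fatty acid synthesis early in the lactating gland, was the exception at 35.1. Acaca is the longest of these genes, and by the percent of its window under peaks it fell to the 33.4th percentile.

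The comparison of test with control asked whether tumors that grew with TSLP differed in acetylation at these genes. In Olah, Fasn and Acaca both test tumors had more covered length than both control tumors, and in Plin2 both had less; at the remaining 6 genes the groups overlapped. Over all genes tested, both test tumors were higher in 18.0% and both control tumors in 12.8%, and the 3 of 10 and 1 of 10 found here are to be read against these shares. None of the 10 genes passed the test (limma on log2 of covered kb plus 0.5, Benjamini-Hochberg adjusted p = 0.998 for each), and of all 16468 genes 0 were called (0.00%), with 606 at an unadjusted p under 0.05 and none of the milk lipid genes (0) among them. The median difference over the 10 genes was -0.06 on the log2 scale, beside -0.00076 over all genes. A single value with 2 tumors against 2 has 3 splits and an exact permutation p of no less than 0.333.

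**Figure D1:**
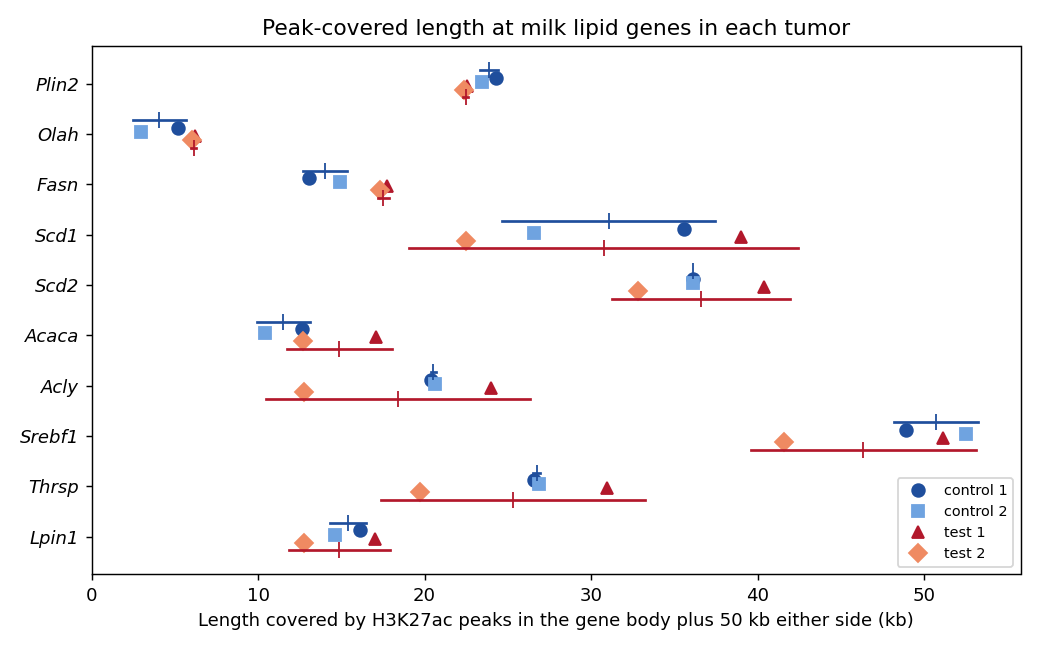
Covered length (kb, linear axis from 0) in the window of each gene, with 1 symbol per tumor and a tick and bar above or below the symbols for the mean ± SD of control (blue) and test (red), n = 2 each. Control and test tumors are apart at Plin2, Olah, Fasn and, by a hair, Acaca, while test 1 and test 2 stand at opposite ends at Scd1, Scd2, Acly, Thrsp and Lpin1.

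The larger part of the spread ran between the test tumors. Test 1 had the highest covered length of the 4 tumors in 8 of the 10 genes, and test 2 the lowest in 7. Both held together in 5 genes, Scd1, Scd2, Acly, Thrsp and Lpin1, beside 22.7% of all genes tested. No share of all genes was taken for the separate counts of 8 and 7. The median SD over the 10 genes on the log2 scale was 0.25 between the test tumors and 0.08 between the controls. It was not taken over all genes, so neither the counts nor the SDs can be called particular to these genes. Leaving out a test tumor changed which genes stood apart. Without test 1, all 10 genes were free of overlap, beside 78.3% of all genes. Of them 3 were higher in test and 7 in control, beside 29.08% and 49.19%. Without test 2, 9 were, beside 70.4%, with 8 higher in test and 1 in control, beside 50.36% and 20.04%. With 1 tumor against 2, groups are free of overlap more often than with 2 against 2. Test 2 also had the fewest peaks and the least covered length over the genome, and the part of that in these values was not tested.

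Acly, ATP citrate lyase (chr11:100476353-100528000, minus strand), makes cytosolic acetyl-CoA from citrate. It was covered over 20.4 kb in control 1, 20.6 kb in control 2, 24.0 kb in test 1 and 12.8 kb in test 2, and the controls lay between both test tumors. The mean was 20.5 ± 0.151 kb in control and 18.4 ± 7.93 kb in test (SD, n = 2 each), a log2 difference of -0.22 (SE 0.32). Its start-site peak measured 2505, 1897, 4885 and 2233 bp in the same order. Within the gene, the region 21.8 to 23.8 kb after the start was covered over 1920, 1283, 1832 and 418 bp, which again was least in test 2. The window also held the starts of 5 other coding genes, among them Cnp and Ttc25, so not all of this length need belong to Acly.

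Acaca, acetyl-CoA carboxylase alpha (chr11:84129672-84401651, plus strand), catalyzes the committed step to malonyl-CoA. Its covered length was 12.64 kb in control 1, 10.41 kb in control 2, 17.10 kb in test 1 and 12.67 kb in test 2. Both test tumors were above both controls, but test 2 exceeded control 1 by only 30 bp, and with peaks within 1 kb joined the groups overlapped. They also overlapped within 10 kb of the gene start, with 4.25, 3.58, 4.83 and 3.29 kb and a log2 difference of 0.0287. The mean was 11.5 ± 1.58 kb in control and 14.9 ± 3.13 kb in test (SD, n = 2 each), a ratio of 1.29 and a log2 difference of 0.35 (SE 0.22, 0.14 without test 1, 0.21 without control 2), which did not pass the test (limma, adjusted p = 0.998). The length inside the gene body followed the same order, with 10.3 and 9.27 kb in control and 14.7 and 11.4 kb in test. In 4 intragenic regions both test tumors were covered more than both controls. The widest of them, 46.8 to 49.8 kb after the gene start, was covered over 2652 and 2103 bp in control and 3064 and 2740 bp in test. Next to it, at 50.1 to 51.7 kb, the controls had 911 and 842 bp and the test tumors 1601 and 1476 bp. A further region at 16.3 to 18.2 kb measured 1276, 1406, 1867 and 1754 bp, and a narrow one at 39.0 to 39.4 kb measured 299, 286, 381 and 376 bp. Neither the transcript start annotated 43.5 kb into the gene nor the one at 65.8 kb lay under a peak in any tumor. The promoter at the gene start was flanked in all 4 tumors by peaks at -1.21 to -0.243 kb and at 0.058 to 0.606 kb, with the start itself in the gap.

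Fasn, fatty acid synthase (chr11:120805846-120824547, minus strand), elongates malonyl-CoA to palmitate. It was covered over 13.1 kb in control 1, 14.9 kb in control 2, 17.8 kb in test 1 and 17.3 kb in test 2, and the groups did not overlap. The mean was 14.004 ± 1.31 kb in control and 17.5 ± 0.325 kb in test (SD, n = 2 each), a ratio of 1.25 and a log2 difference of 0.32 (SE 0.16), which did not pass the test (limma, adjusted p = 0.998). At the promoter printed above, the start-site peak was 1336 and 3012 bp wide in control and 4413 and 4367 bp in test. It began at nearly the same place in all tumors, 946 to 1212 bp before the start, and differed in how far it ran into the gene, with 224 bp in control 1, 1827 bp in control 2, 3200 bp in test 1 and 3420 bp in test 2. The width differed by 1.13 on the log2 scale (SE 0.44), which did not pass the test (limma, adjusted p = 0.932). In control 1 a short break separated this peak from a second one of 2411 bp, and in control 2 a second, shorter one of 0.707 kb followed. With such breaks closed, by joining peaks within 1 kb, the difference in width shrank to 0.16, and without control 1 it was 0.54 and without control 2 1.72. The promoter domain as a whole was covered over 3747 and 3719 bp in control and 4413 and 4367 bp in test. Other regions of the window were also covered more in both test tumors, some of them on neighboring genes. The Dus1l start was covered over 1016, 1010, 1324 and 1597 bp, and the shared promoter of Rfng and Gps1 over 521, 811, 1236 and 1777 bp. A region at the 3′ part of Fasn, 15.3 to 16.2 kb after the start, measured 167 and 0 bp in control and 287 and 860 bp in test. Upstream, in Ccdc57, 2 regions went the other way. The one at -29.9 to -25.8 kb from the start was covered over 4054 and 4123 bp in control and 4033 and 4048 bp in test, and the one at -14.7 to -14.4 kb over 288 and 276 bp against 258 and 0 bp.

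**Figure D2:**
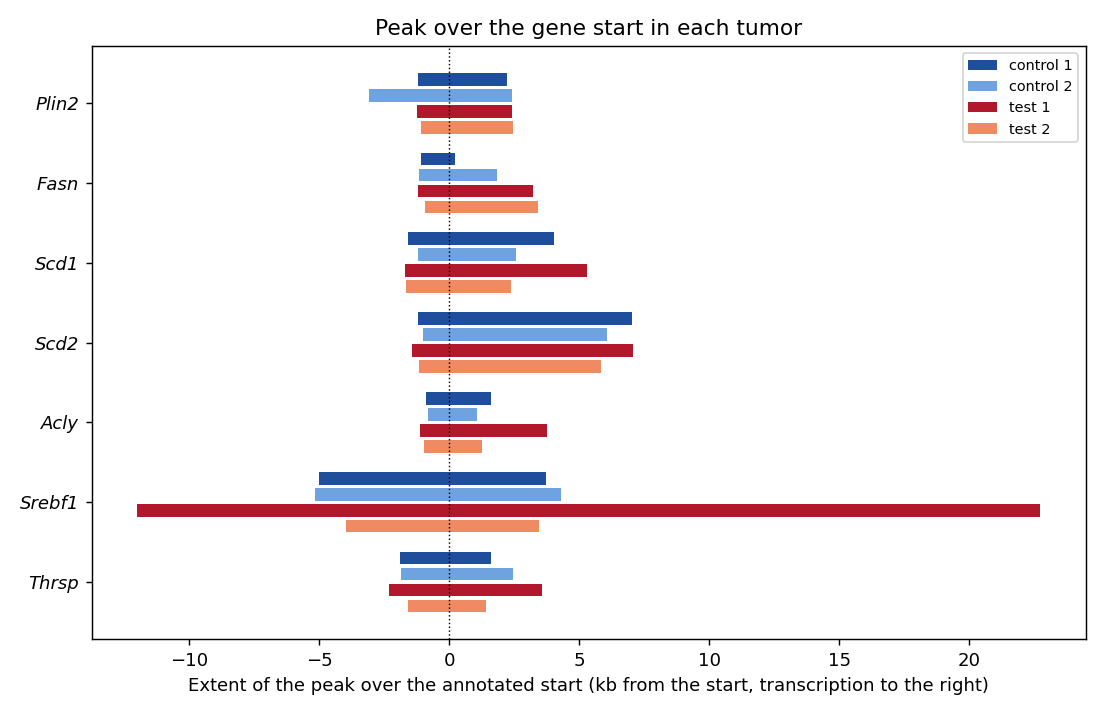
Extent of the peak over the annotated start (kb from the start, transcription to the right) for the 7 genes with such a peak in all tumors, 1 bar per tumor. At Fasn the bars of both test tumors run past 3 kb into the gene and those of both controls stop short of 2 kb, and at Srebf1 the bar of test 1 reaches from -12.03 to 22.7 kb.

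Olah, oleoyl-ACP hydrolase (chr2:3341982-3397210, minus strand), releases fatty acids of medium chain length from the synthase. Its window was sparsely acetylated, with 5.19 kb in control 1, 2.94 kb in control 2, 6.23 kb in test 1 and 6.03 kb in test 2. Both test tumors were higher, and control 1 was closer to them than to control 2. The mean was 4.07 ± 1.59 kb in control and 6.13 ± 0.136 kb in test (SD, n = 2 each), a ratio of 1.51 and a log2 difference of 0.58 (SE 0.28), or 0.22 without control 2 and 0.95 without control 1. Among the milk lipid genes this was the lowest unadjusted p of covered length in limma, 0.0961. It did not pass the test (Benjamini-Hochberg adjusted p = 0.998). In the controls and test tumors alike more of the covered length lay in the flanks than in the gene, where the Rpp38 promoter was the widest region at 2013, 1774, 2094 and 1768 bp, and with narrow peaks under 1 kb left out the groups overlapped.

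Inside the Olah gene the groups were apart as well. Peaks covered 1.28 kb of the gene body in control 1, 0.158 kb in control 2, 2.90 kb in test 1 and 2.09 kb in test 2. All of it fell in a cluster of 5 regions annotated as intron, 5.05 to 10.3 kb after the gene start. The regions at 5.87 to 6.30 kb and 7.26 to 7.86 kb hold the sequences printed above. They were covered over 430 and 226 bp and over 230 and 549 bp in the test tumors and in neither control. With peaks under 1 kb left out, neither region remained. With peaks within 1 kb joined, both merged into a wider region that the controls also held. Further into the gene, the region at 8.09 to 9.33 kb measured 645, 0, 1094 and 749 bp, and the one at 9.60 to 10.3 kb measured 391, 158, 570 and 561 bp. The region at 5.05 to 5.66 kb was present in control 1 and test 1 only, with 243 and 571 bp. Control 2 thus held a single peak of 158 bp in this cluster, where control 1 held peaks in 3 of the 5 regions. No tumor had a peak over an annotated Olah start, neither at the gene start nor at the starts 30.6 kb into the gene. The latter are where RefSeq places the promoter. Counted from them, the cluster lies upstream of the transcript and not in an intron. In 4 genes, Olah, Fasn, Acaca and Lpin1, the gene body was covered more in both test tumors than in both controls, beside 18.0% of all genes with a peak in the body, and in 0 genes was it the reverse, beside 13.4%.

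**Figure D3:**
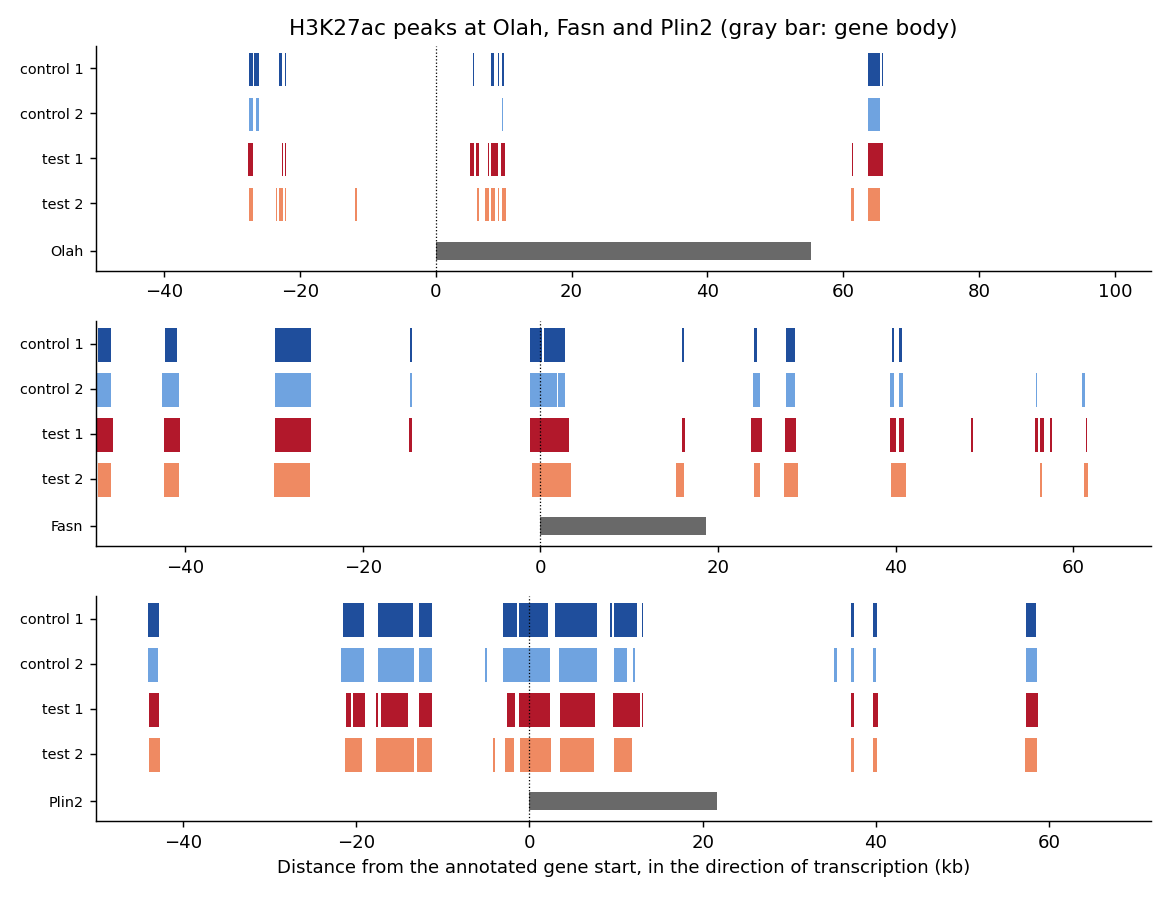
H3K27ac peaks (colored blocks, 1 row per tumor) by distance in kb from the annotated gene start, with transcription to the right and the gene body as a gray bar. The intronic cluster of Olah is dense in both test tumors, partial in control 1 and reduced to 1 block in control 2, and no block stands on the dotted line that marks its start.

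Scd1 (chr19:44394455-44407879, minus strand) and Scd2 (chr19:44293674-44306864, plus strand), stearoyl-CoA desaturases that turn saturated into monounsaturated fatty acids, lie 87.6 kb apart on chromosome 19. The gene Scd4 lies between them, with its start in the Scd2 window. The windows of Scd1 and Scd2 share 12.4 kb. Both were among the most acetylated genes, and at both the groups overlapped. Scd1 had 35.6 kb in control 1, 26.5 kb in control 2, 39.0 kb in test 1 and 22.5 kb in test 2, so each group held a high and a low tumor. The log2 difference was -0.05 (SE 0.32). A domain upstream of Scd1, -16.7 to -7.85 kb from the start, carried the same split, with 8513, 5478, 8031 and 5269 bp, as did the start-site peak with 5586, 3759, 7006 and 4020 bp. Scd2 was more even, at 36.1 kb in both controls, 40.4 kb in test 1 and 32.8 kb in test 2, a log2 difference of 0.01 (SE 0.16). Its start-site peak was the second widest of the group after Srebf1, with 8227, 7076, 8493 and 7028 bp, and its upstream domain at -17.1 to -7.78 kb was covered over 8920, 7791, 9008 and 7167 bp.

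Lpin1 (chr12:16535669-16610966, minus strand) encodes a phosphatidate phosphatase that yields the diacylglycerol for triglyceride. Its window had 16.1 kb in control 1, 14.6 kb in control 2, 17.0 kb in test 1 and 12.7 kb in test 2, with the controls again between the test tumors (log2 difference -0.06, SE 0.20). Neither the gene start nor the start 6.85 kb after it lay under a peak in any tumor. The starts 21.2 kb into the gene did, with peaks of 1876, 1668, 1332 and 1639 bp, narrower in both test tumors. The whole region around them, 19.4 to 23.0 kb after the gene start, was covered over 2942, 2711, 2759 and 3175 bp, where the groups overlapped and test 2 was the highest. A region just past the 3′ end, 77.2 to 79.1 kb after the gene start, was covered over 1760 and 1843 bp in control and 1209 and 1015 bp in test. Inside the gene, control 1 and test 2 were nearly equal, with 7.80 and 6.71 kb in control and 8.43 and 7.85 kb in test.

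Plin2, perilipin 2 or adipophilin (chr4:86648386-86670060, minus strand), coats the cytosolic lipid droplet and was the gene with more acetylation in the controls. Its covered length was 24.3 kb in control 1, 23.5 kb in control 2, 22.6 kb in test 1 and 22.4 kb in test 2, and the groups did not overlap. The mean was 23.9 ± 0.561 kb in control and 22.5 ± 0.145 kb in test (SD, n = 2 each), a ratio of 0.941 and a log2 difference of -0.09 (SE 0.14), which did not pass the test (limma, adjusted p = 0.998). After each tumor was scaled to its total covered length the groups overlapped, with 23.1 and 24.1 kb in control and 21.5 and 24.2 kb in test. In 3 regions both test tumors were covered less than both controls. The promoter domain, from -3.10 to 2.44 kb around the start, was covered over 4975 and 5497 bp in control and 4678 and 4607 bp in test. The region that follows within the gene, at 2.94 to 7.82 kb, had 4880 and 4346 bp against 4092 and 3967 bp. An upstream region, -21.7 to -19.0 kb from the start, had 2404 and 2629 bp against 1965 and 1996 bp. The start of the neighbor Haus6 went the other way, with 1229 and 1263 bp in control and 1434 and 1394 bp in test. The start-site peak itself was 3405, 5497, 3677 and 3546 bp wide and thus overlapped between the groups. Its downstream edge was nearly fixed, 2201 to 2435 bp after the start in the 4 tumors, and the extra width of control 2 was on the upstream side, where it reached 3097 bp.

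Srebf1 (chr11:60199089-60222581, minus strand), which encodes the SREBP1 transcription factor of lipid synthesis, had the broadest acetylation of the group, with 48.9 kb in control 1, 52.5 kb in control 2, 51.1 kb in test 1 and 41.6 kb in test 2 (log2 difference -0.14, SE 0.16). Test 2 was the lowest and the other tumors overlapped. A single domain from -12.03 to 27.2 kb around the gene start took most of it, with 37856, 37353, 38511 and 32093 bp. It spanned the whole gene and ran into Tom1l2 and Rai1. All 250 bases before each of the 3 Srebf1 starts that RefSeq lists, at the gene start, 1.95 kb and 12.1 kb into the gene, were under a peak in every tumor. In test 1 the domain was nearly unbroken, with a peak of 34753 bp over the start, where the other tumors had peaks of 8724, 9478 and 7426 bp with gaps between them. The log2 difference in width of 0.82 (SE 0.82) turned to -1.16 when peaks within 1 kb were joined, and to -0.29 without test 1.

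**Figure D4:**
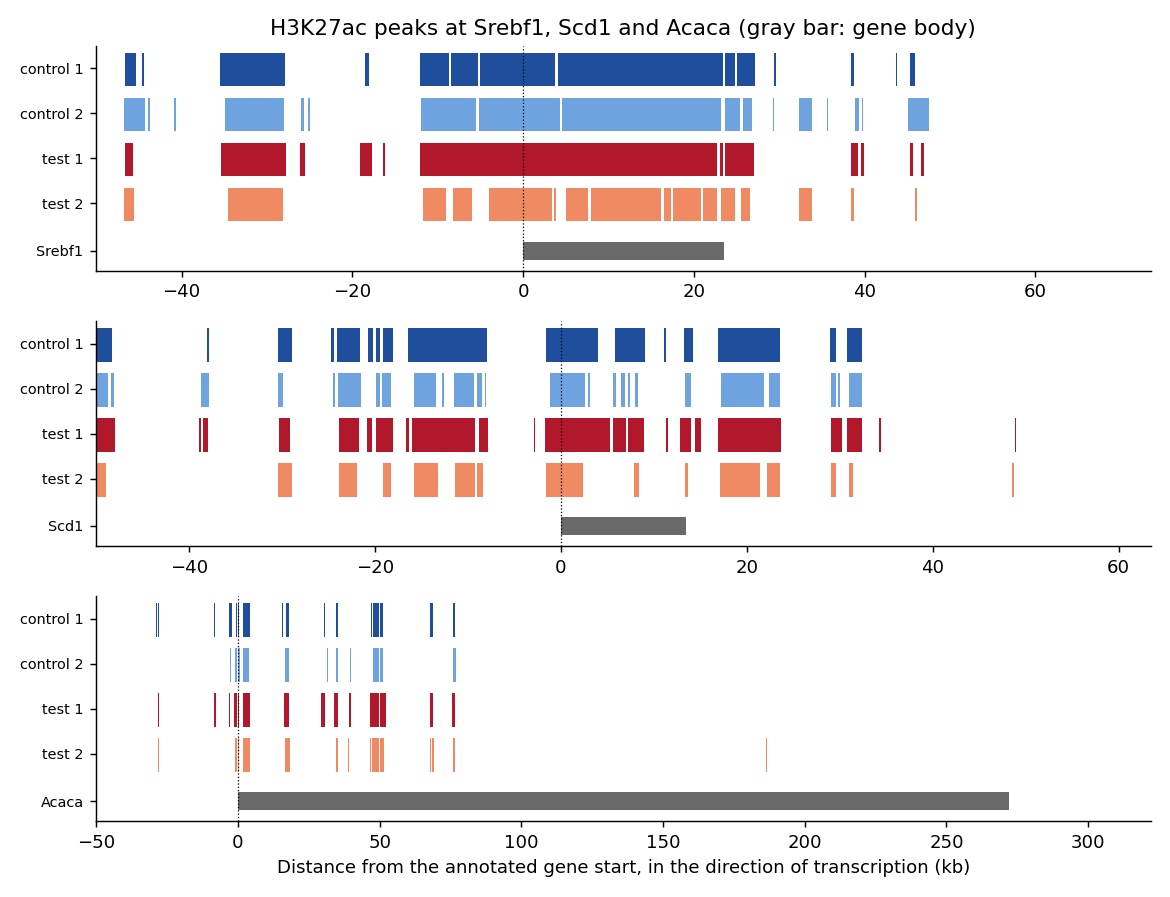
H3K27ac peaks (colored blocks, 1 row per tumor) by distance in kb from the annotated gene start, drawn as for Olah, Fasn and Plin2, with a separate scale for each gene. The domain over Srebf1 covers the gene in every tumor and is most broken in test 2, the blocks at Scd1 are fuller in control 1 and test 1, and those inside Acaca end 76.8 kb after its start apart from 1 narrow block in test 2.

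Thrsp, or Spot 14 (chr7:97412938-97417730, minus strand), is a small acidic protein that promotes fatty acid synthesis in the lactating gland. Its window had 26.6 kb in control 1, 26.9 kb in control 2, 30.9 kb in test 1 and 19.7 kb in test 2, so the controls were close together and the test tumors lay on either side (log2 difference -0.11, SE 0.25). The start-site peak followed the same order, with 3528, 4308, 5879 and 3005 bp. The gene body held only 2.24, 2.66, 3.55 and 1.59 kb. The window also held the starts of Alg8, Ndufc2 and Kctd14, so not all of its covered length need belong to Thrsp. A wide upstream region, -31.2 to -26.6 kb from the start and nearest to the Kctd14 start, was covered over 4381, 4564, 4433 and 3751 bp. A region at -17.5 to -15.5 kb held 1874, 1656 and 1941 bp in the first 3 tumors and 420 bp in test 2.

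The width of the start-site peak could be fitted for 7 of the 10 genes, leaving out Olah, Acaca and Lpin1, and 0 of 7126 genes were called (0.00%, limma, lowest adjusted p = 0.109, with 339 genes at an unadjusted p under 0.05). Fasn was the single one of the 7 with both test tumors above both controls, beside 24.8% of all genes fitted, and in 0 of them was the reverse found, beside 9.15%. In the median the log2 difference was 0.21 over these 7 genes and 0.05 over all.

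**Figure D5:**
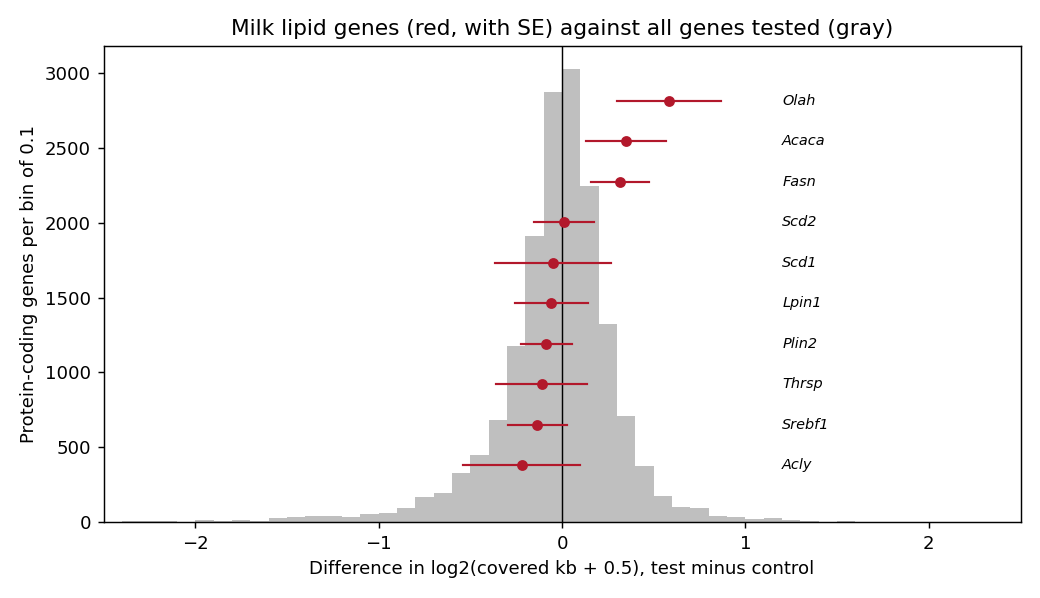
Difference in log2(covered kb + 0.5), test minus control, for 16458 of the genes tested (gray bars, genes per bin of 0.1, 10 genes outside the range drawn) and for the 10 milk lipid genes (red points, with their SE as a line, at arbitrary heights). Olah, Acaca, Fasn and, barely, Scd2 lie to the right of the median of all genes, the black line, and the other 6 lie to its left.

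Joined over the 4 tumors, the peaks in these windows formed 180 regions. Of them 82 (45.6%) were present in all 4 tumors, beside 38.1% of all regions of the genome. Regions held by both controls and no test tumor numbered 3 (1.67%, beside 3.41%), and those held by both test tumors and no control 4 (2.22%, beside 1.47%). Of the 4 test-only regions, 3 were in the Olah window, the intronic pair and an intergenic region at chr2:3335579-3336031, and 1 was intergenic in the Fasn window at chr11:120767806-120768298. The control-only regions were intergenic near Dclre1c in the Olah window at chr2:3423168-3423930, over a noncoding gene upstream of Scd1 at chr19:44432178-44432623, and in an intron of Rai1 in the Srebf1 window at chr11:60192987-60193330. The windows of the other 6 genes held neither kind.

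Other genes of the pathway were taken from 7 lists with 46 genes, of which Lpl, which releases fatty acids from circulating triglyceride, and Pparg, the regulator of fat cell differentiation, had no peak in the window in any tumor. Of the 44 tested, 0 were called by limma, both test tumors were higher in 9 and both controls in 4, beside 18.0% and 12.8% of all genes. Per list, the test tumors were higher and lower, respectively, in 2 and 0 of 5 genes of fatty acid uptake and activation, in 1 and 0 of 5 of elongation and desaturation, in 0 and 1 of 6 of glycerolipid assembly, in 3 and 0 of 5 of NADPH and citrate supply, in 1 and 0 of 8 regulators, in 1 and 1 of 7 of droplet and secretion, and in 1 and 2 of 8 of cholesterol synthesis. In 6 of the lists, the gene with the greatest difference in mean covered kb between groups that did not overlap was as follows, with its log2 difference in parentheses. Me1, malic enzyme, which supplies NADPH, had 18.2 and 17.2 kb in control and 22.7 and 29.1 kb in test (log2 difference 0.52, SE 0.18). Rab18, a small GTPase of lipid droplets, had 7.10 and 4.89 kb against 8.56 and 16.3 kb (0.95, SE 0.36). Acsl1, which activates long-chain fatty acids, had 13.2 and 14.4 kb against 16.5 and 19.0 kb (0.35, SE 0.16). In these genes test 2 and not test 1 was the highest tumor. Elovl1, an elongase, had 10.3 and 11.2 kb against 11.9 and 14.4 kb (0.27, SE 0.17). Nr1h3, which encodes the oxysterol receptor LXR alpha, had 5.62 and 6.51 kb against 6.66 and 7.28 kb (0.19, SE 0.17). Higher in the controls was Agpat2, an acyltransferase of glycerolipid assembly. It had 8.35 and 8.09 kb in control and 6.24 and 3.38 kb in test (-0.77, SE 0.30). The adjusted p was 0.998 in limma for each of these 6 genes.

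Whole tumor tissue was used, so fewer cells of a type and less acetylation per cell cannot be told apart. Fat cells also express most of these lipid genes, and the summed coverage of their markers overlapped between the groups. Of 12 adipocyte markers, 5 (Adipoq, Fabp4, Lep, Pparg and Pck1) had no peak within 10 kb of the start in any tumor. The summed length over the list was 11.4 and 12.6 kb in control and 16.7 and 8.40 kb in test. Test 1 was highest and test 2 lowest, as at 5 of the milk lipid genes. Much of this length lay at Lipe, with 4.75 and 5.20 kb in control and 6.12 and 4.00 kb in test. Markers of other cells outside the epithelium had smaller sums in the test tumors. The sum over 6 endothelial markers was 4.28 and 4.38 kb in control and 1.77 and 1.11 kb in test. That over 8 fibroblast markers was 6.65 and 6.14 kb against 4.11 and 1.29 kb. For 8 macrophage markers it was 19.1 and 19.8 kb against 17.5 and 12.8 kb. Much of this lay at Cd68, where the groups overlapped, with 7.67 and 10.0 kb against 8.96 and 7.97 kb. For 6 T cell markers it was 1.06 and 1.64 kb against 0.254 and 0.202 kb, near the floor. The control sums lay mostly at Lck (0.494 and 0.781 kb) and Cd2 (0.566 and 0.200 kb). Cd3e went the other way, with 0 and 0.158 kb against 0.254 and 0.202 kb. The authors report proliferating CD4+ T cells in tumors of the test genotype after T cell transfer. No peak lay near the defining markers Vwf, Lum, Fap and Adgre1. The next counts and shares are of genes with a peak within 10 kb of the start. Both controls were above both test tumors in 3 of 5 endothelial and 2 of 6 fibroblast genes. They were so in 3 of 7 macrophage, 2 of 6 T cell, 1 of 7 adipocyte and 1 of 12 luminal genes. Over all such genes the share was 11.6%. The reverse was found in 3 of 12 luminal, 1 of 7 adipocyte and 1 of 6 T cell genes, beside 20.9% of all such genes. Of the milk lipid genes, Olah and Fasn were higher in test and Plin2 in control within this distance, as in the wider window, and at Acaca the groups overlapped. Olah had 1.17 and 0.158 kb in control and 2.73 and 1.81 kb in test. The part of these cells in the values of the milk lipid genes was not tested.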

How the data were processed

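The authors performed H3K27ac ChIP-seq on tumor pieces, aligned reads to mm10 with BWA and, separately for every tumor, ran MACS2 against the matching input. The deposited peak lists hold positions only, a chromosome, a start and an end in base pairs per peak, and no count, signal or score. Per the file names, peaks were cleaned and merged within 200 bp, and the smallest gap was 201 bp. What the cleaning removed is not given in the sources used here. The 4 input libraries were not analysed here.

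Groups were taken from the genotype per the labels, and the number of a tumor only names it. Gene bodies and starts came from GENCODE M21 (GRCm38), 21938 protein-coding genes on 21 chromosomes. The 10 genes, the companion and marker lists, the motifs and the tests were chosen with earlier results of these data known. Covered length was the number of bases under peaks in the gene body plus 50 kb either side. Genes with a mean of at least 1 kb over the 4 tumors (16468, all 10 milk lipid genes among them) were tested by limma 3.58.1 in R 4.3.3 on log2(covered kb + 0.5) with a trended prior, two-sided, with Benjamini-Hochberg adjustment over all genes and a threshold of 0.05. The pseudocount understates changes of sparsely covered genes. The width of the peak over the gene start was tested likewise on log2 bp in the 7126 genes that had such a peak in every tumor. Regions were unions of overlapping or touching peaks. Named were all 10 genes and, of each companion list, the gene with the largest absolute difference in mean covered kb among those without overlap between the groups, except for 1 list whose gene is not reported here; regions, neighbors and marker genes were named after their values were seen. The limma scripts were tested on simulated data. Other settings, and each tumor left out in turn, were tried as alternatives. Precision is limited by 2 tumors per group and by the unknown depth. Python 3.11.15 was used for interval arithmetic.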

Additional observations from a re-analysis of the deposited data

How the results depend on the processing

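No paired analysis was possible because the labels carry no replicate numbers shared between the groups. No gene was called for covered length in any alternative that kept all 4 tumors, nor for start-site peak width in any (0 genes each), and the lowest adjusted p of a milk lipid gene was 0.506 with all tumors (limma) and 0.0956 with a tumor left out. Leaving out 1 tumor at a time gave 0 to 13 called genes for covered length (13 without test 1, none of them among the 10) and 0 for width, where the lone tumor is assumed to vary like the other group. It gave 4 to 10 of the 10 genes without overlap, beside 56.2% to 78.3% of all genes in the same comparisons of 1 tumor against 2. The median difference was -0.20 to 0.21, and 3 to 18 regions were control-only and 6 to 21 test-only, kinds that 1 tumor against 2 makes easier to meet. Control-only regions fell from 3 to 1 with peaks of at least 1 kb, with peaks within 1 kb joined and with a flank of 20 kb, and test-only regions from 4 to 1 with the first pair of these settings.

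In covered length, the sign of Scd1 turned with peaks of at least 1 kb (0.0645), that of Scd2 with a flank of 20 kb (-0.0357) and within 10 kb of the start (-0.0644), and that of Lpin1 with a flank of 20 kb (0.0933); within 10 kb of the start Lpin1 fell under the filter of 1 kb and was not fitted. In width, joined peaks turned Srebf1 (-1.16) and Thrsp (-0.0221). With each tumor left out in turn, signs also turned in covered length for Scd1 (-0.44 to 0.34), Scd2 (-0.14 to 0.16), Acly (-0.66 to 0.22), Srebf1 (-0.28 to 0.0121), Thrsp (-0.43 to 0.21) and Lpin1 (-0.26 to 0.14), and in width for Plin2 (-0.61 to 0.0847), Scd1 (-0.19 to 0.61), Scd2 (-0.12 to 0.15), Srebf1 (-0.29 to 1.93) and Thrsp (-0.38 to 0.59). Olah (0.22 to 0.95), Acaca (0.14 to 0.56), Fasn (0.22 to 0.41) and Plin2 (-0.11 to -0.06) kept their sign in covered length. The causes were not tested.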
